A study of Mus musculus with 2 samples.

Results

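The mitochondrial ribosomal protein genes were taken as all genes whose symbol is Mrpl or Mrps followed by a number and at most 1 letter. They were 78 of the 55450 genes in the files, all protein coding, on 17 mouse chromosomes. Of these, 51 encode proteins of the large and 26 of the small subunit in current naming. In that naming Mrps18a and Mrps30 belong to the large subunit, and Mrps36 is a subunit of the oxoglutarate dehydrogenase complex and no ribosomal protein. The question was how abundant these RNAs were in microglia and how they differed between awake and anesthetized mice.

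Mitochondria hold ribosomes of their own, which translate the few messenger RNAs of mitochondrial DNA into membrane subunits of the respiratory chain and ATP synthase. Their ribosomal RNAs are transcribed from mitochondrial DNA, while every protein of both subunits is encoded in the nucleus, made in the cytosol and imported. Some of these proteins have counterparts in bacterial ribosomes, and others were added in the lineage of mitochondria.

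Male adults of the inbred mouse strain C57BL/6J (genotype C57 in the labels) received either saline (3 mice, the awake group) or sodium pentobarbital, a barbiturate anesthetic, at 100 mg/kg (3 mice, the anesthesia group). Brain microglia, the resident macrophages of the brain, were sorted as CD11b+ CD45low cells, and RNA was counted per cell with the 10x Chromium 3' method, in which a unique molecular identifier (UMI) stands for 1 captured RNA molecule. Each group has 1 library, so the difference between the groups has no replicate and no test. Library, handling and treatment cannot be told apart, and how the 3 mice of a group entered its library is not given in the sources used here.

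In the awake library 53262885 UMIs were counted in 8600 barcodes, and in the anesthesia library 61139016 in 9412, with median depths of 5883 and 5347 UMIs, and 14 barcodes occurred in both. Mitochondrial UMIs made up a median of 1.45% of an awake and 2.26% of an anesthesia barcode. Clusters named microglia-like from 10 microglial markers held 7515 of the 8223 awake and 8466 of the 8944 anesthesia cells that passed the cell filter. All 10 markers were present in them, which their naming fixed in part, at 178 to 8102 counts per 1000000 UMIs (CPM) awake and 177 to 7600 CPM under anesthesia. Of 14 other classes with 10 markers each, endothelial markers summed highest in these cells, at 492 and 336 CPM, of which 1 gene held 441 and 292 CPM. B cell markers summed to 236 and 209 CPM (highest gene 194 and 180) and neutrophil markers to 235 and 165 (highest gene 185 and 162). Border-associated macrophage markers summed to 135 CPM in both libraries (highest gene 122 and 120), and oligodendrocyte markers to 131 and 123 CPM (highest gene 54.6 and 40.3). The other 9 classes, neurons and astrocytes included, lay between 0.789 and 61.3 CPM, and the part of such RNA in the ratios was not tested. Clustering mostly separated the microglia-like cells by library. Clusters 0 and 1 had 3447 and 3308 awake but 84 and 89 anesthesia cells, and clusters 2, 3 and 4 had 2967, 2867 and 1892 anesthesia but 24, 62 and 40 awake cells. UMIs were summed over the microglia-like cells of each library, which gave totals of 48137517 and 56820104 UMIs. Every interval below is a 95% interval for counting error only.

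Mitochondrial ribosomal protein RNAs as a group were less abundant under anesthesia. Together they made up 2697 CPM of the awake and 2191 CPM of the anesthesia microglia-like cells, from 129812 and 124506 UMIs. The log2 ratio of anesthesia over awake for this sum was -0.30 (-0.31 to -0.29). Of the 78 genes, 77 had at least 200 UMIs over both libraries and are called measured. Mrpl53, a large-subunit gene, did not reach that count, with 15 awake and 10 anesthesia UMIs.

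Among the 77 measured genes, 67 had a log2 ratio below 0 and 10 above 0, with a median of -0.39. Genes at least 1.5-fold lower in the anesthesia library numbered 28, against 11.9% of all 11403 measured genes, and genes at least 1.5-fold higher numbered 2, against 13.4%. These counts are 36.4% and 2.60% of the measured members. The counting interval lay wholly below 0 for 62 members and wholly above 0 for 6, while 40.2% and 38.7% of all measured genes had such intervals. The median over all measured genes was -0.02. The members' own range was wide, from -1.51 for Mrpl14 to 0.92 for Mrps6.

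**Figure D1:**
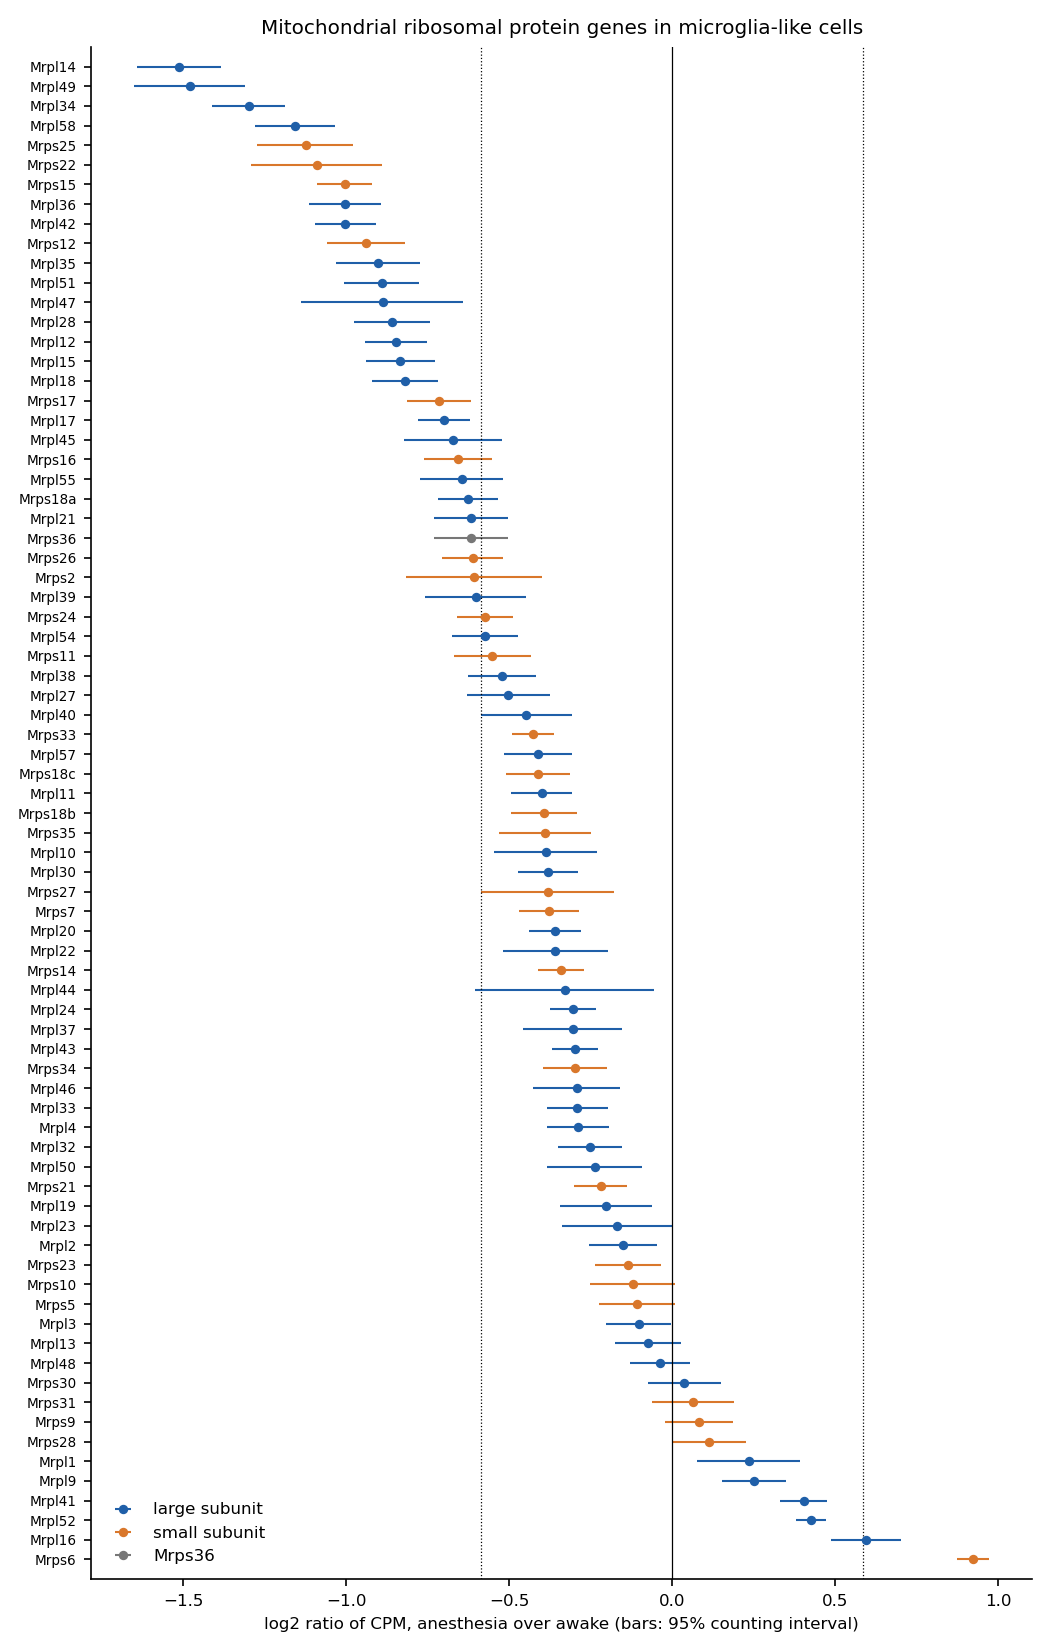
Log2 ratio of CPM, anesthesia over awake (x axis), of each of the 77 measured genes in microglia-like cells (rows, sorted), coloured by subunit; bars are 95% counting intervals and dotted lines mark 1.5-fold. Most points lie left of 0 (67 of 77), 28 lie at or beyond the left dotted line, and Mrps6 and Mrpl16 lie beyond the right one.

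The promoters of the genes at both ends of this range are shown, since they are the members that differed most. Each sequence is the 100 bases before the RefSeq start of the gene on GRCm38.p6, 5′ to 3′ on the strand of the gene. Capitals mark the GC box GGGCGG, the CCAAT box CCAAT and the TATA box TATAAA, on either strand. The 4 genes that were lowest in the anesthesia library relative to the awake library are these:
Mrpl14, chr17:45686249-45686348, plus strand: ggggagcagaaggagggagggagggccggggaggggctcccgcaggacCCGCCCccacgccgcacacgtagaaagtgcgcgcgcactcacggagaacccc
Mrpl49, chr19:6057756-6057855, minus strand: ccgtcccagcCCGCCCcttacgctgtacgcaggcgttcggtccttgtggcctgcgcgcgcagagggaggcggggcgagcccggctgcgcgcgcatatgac
Mrpl34, chr8:71464826-71464925, plus strand: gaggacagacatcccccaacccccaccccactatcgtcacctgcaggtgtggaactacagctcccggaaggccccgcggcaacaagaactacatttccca
Mrpl58, chr11:115403652-115403751, plus strand: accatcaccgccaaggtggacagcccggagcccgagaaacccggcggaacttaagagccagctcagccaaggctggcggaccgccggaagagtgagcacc

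The 4 genes with the highest ratios follow, with the same marks:
Mrps6, chr16:92058236-92058335, plus strand: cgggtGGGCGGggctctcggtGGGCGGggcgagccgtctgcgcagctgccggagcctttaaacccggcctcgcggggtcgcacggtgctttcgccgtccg
Mrpl16, chr19:11770315-11770414, plus strand: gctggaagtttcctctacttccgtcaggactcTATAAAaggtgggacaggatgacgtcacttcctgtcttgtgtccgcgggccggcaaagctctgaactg
Mrpl52, chr14:54426809-54426908, plus strand: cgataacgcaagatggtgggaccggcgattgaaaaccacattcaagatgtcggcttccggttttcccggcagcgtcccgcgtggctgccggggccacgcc
Mrpl41, chr2:24975099-24975198, minus strand: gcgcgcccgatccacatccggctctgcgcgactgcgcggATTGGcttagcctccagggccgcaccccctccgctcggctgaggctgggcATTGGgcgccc

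Among the promoters of the lowest 4, Mrpl14 and Mrpl49 hold a GC box in these 100 bases, and those of Mrpl34 and Mrpl58 hold none of the searched motifs. Among the highest 4, Mrps6 holds the GC box and, not capitalized, the NRF1 core TGCGCA, Mrpl41 the CCAAT box and Mrpl16 the TATA box. No motif of the 8 searched therefore occurred in all 4 promoters of either end, within this window.

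Over the 300-base RefSeq promoter windows (250 bases before to 50 after the start), 69 of the 78 genes had 75 windows. Motifs of factors known to act on nuclear genes for mitochondria were more common there than in promoters at large. NRF1 is a transcription factor that binds GC-rich palindromes in many such promoters, and the palindrome CGCATGCG at the centre of its site was in 9.33% of the members' windows, 1.87% of all 32851 windows and 4.12% of the 10702 windows of measured genes. The shorter NRF1 core TGCGCA was in 29.3%, 7.76% and 14.3% of the same groups. The CCGGAAGT site of ETS factors, the family of GABPA, was in 16.0%, 3.89% and 8.88%. The YY1 site AAGATGGCG was in 10.7%, 1.403% and 3.43%. The members' windows are also richer in G and C, with a median of 58.7% against 52.7% over all windows, and a match says only that these letters are present.

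The NRF1 palindrome occurred in 7 members. Those with the 2 lowest and the 2 highest ratios are shown over 30 bases, lowest first, with the palindrome in capitals; Mrpl32 holds it 2 times:
Mrpl17, chr7:105811078-105811107, minus strand: cgagttactgCGCATGCGtcctctgagacg
Mrpl39, chr16:84735349-84735378, minus strand: aggagaggcgCGCATGCGcccccgcgtggc
Mrpl32, chr13:14613104-14613133, minus strand: ttgacccttgCGCATGCGcaagaggggcct
Mrpl32, chr13:14613041-14613070, minus strand: gcggacttaaCGCATGCGctcagcccgcgt
Mrpl9, chr3:94443299-94443328, plus strand: ggcgcagctgCGCATGCGcggggtccttct

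Of the genes with the palindrome, Mrpl17 had a log2 ratio of -0.70, Mrpl39 of -0.60, Mrps18b of -0.39, Mrpl10 of -0.39, Mrpl22 of -0.36, Mrpl32 of -0.25 and Mrpl9 of 0.25. Their median was -0.39, and that of the 61 measured members with windows but no palindrome was -0.41. The YY1 site occurred in 8 members. The 3 with the lowest and the 2 with the highest ratios are shown in the same way, with the YY1 site in capitals; in Mrpl36 it lies on the opposite strand and reads as its reverse complement:
Mrpl36, chr13:73330968-73330997, plus strand: cgtgaccttaCGCCATCTTtcttcctggcg
Mrpl42, chr10:95501903-95501932, minus strand: agattgaagcAAGATGGCGagcgcgcggtg
Mrpl35, chr6:71823742-71823771, minus strand: ggcaggctgcAAGATGGCGgcttccatctt
Mrps27, chr13:99344790-99344819, plus strand: ggtgcgctccAAGATGGCGgctcccatggt
Mrpl37, chr4:107066821-107066850, minus strand: tgcacgggcaAAGATGGCGgcgtccaggta

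All 8 had a ratio below 0, as had 87.0% of all measured members. Mrpl36 stood at -1.003, Mrpl42 at -1.002, Mrpl35 at -0.90 and Mrps18a at -0.63. Mrps24 stood at -0.57, Mrps11 at -0.55, Mrps27 at -0.38 and Mrpl37 at -0.30, and the median of the 8 was -0.60. The median of the 60 measured members with windows but no YY1 site was -0.39, and no test was made of this difference. Members with and without the NRF1 core had medians of -0.39 and -0.43, and with and without the ETS site -0.40 and -0.41. CCAAT was in 40.0% of the members' windows, 37.4% of all windows and 37.6% of the windows of measured genes, and the palindrome CTCGCGAG in 2.67%, 0.919% and 2.03%. TATAAA was in 6.67% of the members' windows, fewer than the 13.6% of all windows but close to the 6.80% of measured genes. GGGCGG was in 52.0%, above the 35.7% of all windows and below the 63.4% of measured genes. Motifs were searched on both strands, their letters were set with the log2 ratios known, and matches of the NRF1 palindrome and of the NRF1 core can overlap.

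In level, these are moderately abundant RNAs of microglia. The middle 50% of the members lay between 18.6 and 35.4 CPM (mean of both libraries), with a median of 29.0 CPM. The 3' method counts each molecule once at its end, so CPM is not scaled to transcript length, and levels can be compared between genes only to the extent that their ends are captured alike. Mrpl52 led with 131 CPM awake against 176 CPM under anesthesia, Mrps6 followed with 102 and 193 CPM, and Mrps33 was next with 86.5 and 64.3 CPM. Mrpl43, Mrpl24 and Mrps14 came next, at 63.3, 62.8 and 61.2 CPM in the mean, and differed among themselves by less than their libraries did. At the low end stood Mrpl44, with 4.80 and 3.82 CPM.

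**Figure D2:**
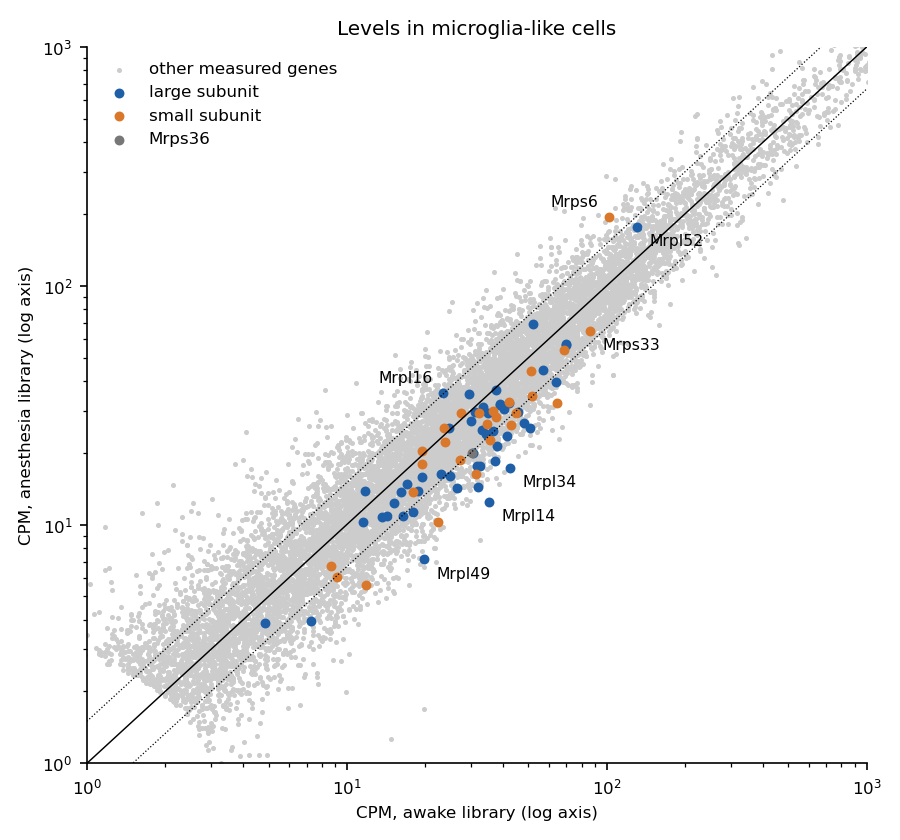
CPM in the awake (x axis) against the anesthesia library (y axis), both log axes, in microglia-like cells; coloured points are the 77 measured genes and grey points the other measured genes between 1 and 1000 CPM, with lines at equality and at 1.5-fold. Most coloured points lie below the line of equality; Mrps6, Mrpl52 and Mrpl16 lie above it.

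Among large-subunit proteins, 50 of 51 genes were measured and the median log2 ratio was -0.39. Of them 19 (38.0%) were at least 1.5-fold lower and 1 (2%) higher, beside 11.9% and 13.4% of all measured genes. Mrpl14, a protein with a bacterial counterpart that lies at the contact between the subunits, had 35.3 CPM (1699 UMIs) awake against 12.4 CPM (703 UMIs) under anesthesia, a log2 ratio of -1.51 (-1.64 to -1.38), or 2.85-fold lower. Its gene (ENSMUSG00000023939, chr17:45686322-45698495 on GRCm38, plus strand) overlaps exons of Tmem63b on the opposite strand, and Tmem63b had 21.04 and 19.4 CPM. Mrpl49, a large-subunit protein found in mitochondria only, had 19.8 and 7.11 CPM, a log2 ratio of -1.48 (-1.65 to -1.31). Mrpl34, with a bacterial counterpart, had 42.4 and 17.2 CPM, a log2 ratio of -1.30 (-1.41 to -1.19). All 3 genes were thus at least 2.46-fold lower in the anesthesia library, summed over all microglia-like cells. With the ratio taken within clusters, Mrpl14 stood at -1.05, Mrpl49 at -1.69 and Mrpl34 at -1.10.

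Mrpl58, a peptidyl-tRNA hydrolase built into the large subunit that can free stalled ribosomes, had 32.1 and 14.4 CPM, a log2 ratio of -1.16 (-1.28 to -1.03). It stood at -0.76 within clusters. Mrpl36 had 37.0 and 18.5 CPM and Mrpl42 50.8 and 25.3 CPM, with log2 ratios of -1.003 and -1.002. The stalk that recruits translation factors to the ribosome holds Mrpl12, and Mrpl10 and Mrpl11 at its base. These 3 differed unequally, with log2 ratios of -0.85 (-0.94 to -0.75) for Mrpl12, -0.39 (-0.55 to -0.23) for Mrpl10 and -0.40 (-0.49 to -0.31) for Mrpl11. Mrpl32, whose precursor is processed by the m-AAA protease before it enters the ribosome, had 34.9 and 29.3 CPM, a log2 ratio of -0.25 (-0.35 to -0.15). Mrpl44, which has a ribonuclease III-like fold, had -0.33 (-0.60 to -0.06) at its low level.

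The other large-subunit genes beyond 1.5-fold on the lower side were Mrpl35 (-0.90), Mrpl51 (-0.89), Mrpl47 (-0.89), Mrpl28 (-0.86), Mrpl15 (-0.83), Mrpl18 (-0.82), Mrpl17 (-0.70), Mrpl45 (-0.67), Mrpl55 (-0.65), Mrps18a (-0.63), Mrpl21 (-0.62) and Mrpl39 (-0.60), as log2 ratios. With the trend of the ratio over GC content and transcript length, fitted across all measured genes, removed, Mrpl55 (-0.52), Mrps18a (-0.46), Mrpl21 (-0.43) and Mrpl39 (-0.55) were no longer beyond 1.5-fold. Thinned to 2000 UMIs a cell, Mrpl55 (-0.57), Mrps18a (-0.51) and Mrpl39 (-0.39) were not, and within clusters Mrpl45 (-0.54), Mrps18a (-0.50), Mrpl21 (-0.15) and Mrpl39 (-0.45) were not. In the other direction Mrpl16, a core protein of the large subunit, had 23.5 CPM awake against 35.5 CPM under anesthesia, a log2 ratio of 0.59 (0.49 to 0.70). It lay just past 1.5-fold, and just inside it when every cell was thinned to 2000 UMIs. Mrpl52 had a log2 ratio of 0.43 (0.38 to 0.47), Mrpl41 0.40 (0.33 to 0.48), Mrpl9 0.25 and Mrpl1 0.23, so 4 of these 5 large-subunit genes were higher by less than 1.5-fold. Within clusters Mrpl41 stood at 0.08 and Mrpl9 at 0.13, and with the trend over GC content and length removed Mrpl1 stood at 0.02. Near-identical copies elsewhere in the transcriptome make the counts of 17 members uncertain, among them Mrpl41, Mrpl42, Mrpl51, Mrpl21, Mrpl22, Mrpl32, Mrps16, Mrps26, Mrps18b, Mrps33 and Mrps36.

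Among small-subunit proteins, all 26 genes were measured and the median was again -0.39. Of them 8 (30.8%) were at least 1.5-fold lower and 1 (3.85%) higher, beside 11.9% and 13.4% of all measured genes. Mrps25, found in mitochondria only, had 22.3 CPM awake against 10.2 CPM under anesthesia, a log2 ratio of -1.12 (-1.27 to -0.98). Mrps22, likewise without a bacterial counterpart, had 11.8 and 5.54 CPM, a log2 ratio of -1.09 (-1.29 to -0.89). Mrps15, a conserved protein that binds the small ribosomal RNA, had 64.5 and 32.2 CPM, a log2 ratio of -1.003 (-1.09 to -0.92). Each of these 3 was therefore about 2-fold lower in the sum over all microglia-like cells. Within clusters Mrps15 stood at -0.98, but Mrps25 at -0.78 and Mrps22 at -0.59. Mrps12, the protein of the decoding site, had 31.2 and 16.3 CPM, a log2 ratio of -0.94 (-1.06 to -0.82), and -0.59 within clusters.

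The remaining small-subunit genes beyond 1.5-fold on the lower side were Mrps17 (-0.71), Mrps16 (-0.66), Mrps26 (-0.61) and Mrps2 (-0.61), as log2 ratios. Mrps16 fell short of 1.5-fold with cells thinned (-0.45) and within clusters (-0.53), and Mrps2 with the trend over GC content and length removed (-0.52). Mrps7, an early-binding protein of the small subunit, had -0.38. Of the 3 related Mrps18 proteins, Mrps18a had -0.63, Mrps18b -0.39 and Mrps18c -0.41. Mrps9 and Mrps28 stood at 0.08 and 0.11, and the large-subunit protein Mrps30 at 0.04, all with intervals that reach 0. Mrps36, the gene that is no ribosomal protein in current naming, had 30.3 and 19.8 CPM, a log2 ratio of -0.62, and -0.42 within clusters.

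Mrps6 stood apart from the other 25 small-subunit genes. It had 102 CPM (4907 UMIs) awake against 193 CPM (10989 UMIs) under anesthesia, a log2 ratio of 0.92 (0.88 to 0.97). Its gene (chr16:92058270-92112227, plus strand) shares exons on the same strand with Slc5a3, a sodium-coupled myo-inositol transporter, and with Gm49711. Slc5a3 had 108 and 281 CPM, a log2 ratio of 1.38 (1.34 to 1.43), and reads of the genes may not be told apart by the authors' counting. With Mrps6 included, the summed log2 ratio of the small subunit was -0.21 (-0.23 to -0.20) while that of the large subunit was -0.35 (-0.36 to -0.33). Without Mrps6, which was left out with its ratio known, the small subunit stood at -0.43 (-0.45 to -0.41). No gene was left out of the large subunit, which kept Mrpl52 at 0.43, so these sums do not order the subunits. Without the 8 genes that overlap another gene on the same strand, the summed ratio was -0.37 (-0.39 to -0.36). Of the 70 measured members left, 27 (38.6%) lay beyond 1.5-fold on the lower and 1 (1.43%) on the higher side. Of all measured genes 11.9% and 13.4% did.

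The medians by evolutionary origin were close before the trend over GC content and transcript length was removed, and less so after. The 46 members with a bacterial counterpart had a median log2 ratio of -0.38, with 17 at least 1.5-fold lower and 2 higher, and the 30 measured members found in mitochondria only had -0.40, with 10 lower and 0 higher, beside 11.9% and 13.4% of all measured genes. With the trend removed the medians were -0.39 and -0.25. Neither class was tested against the other, since genes are not replicates of a condition.

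The members were next set beside other genes of the same abundance. Other measured genes, weighted to the members' distribution over 20 bins of mean CPM, had a median log2 ratio of -0.03, and 11.9% of them were at least 1.5-fold lower and 10.6% higher. Below 0 lay 52.4% of them, against 87.0% of the members. Matching on GC content and transcript length as well moved the median of the other genes to -0.15, with 60.9% below 0. Of these genes 17.2% were at least 1.5-fold lower and 10.5% higher. The members' median of -0.39 was lower than both.

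**Figure D3:**
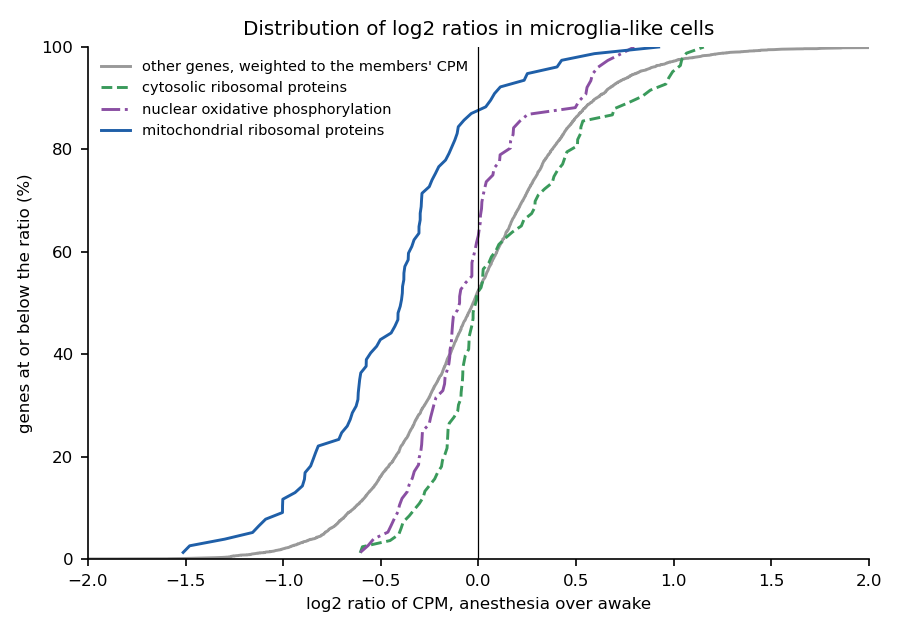
Cumulative share of genes (y axis, %) at or below each log2 ratio of CPM, anesthesia over awake (x axis), in microglia-like cells, for the measured members, nuclear oxidative phosphorylation genes, cytosolic ribosomal protein genes and other genes weighted to the members' CPM. The members' curve lies to the left, with 87.0% of genes below 0 against 52.4% of the weighted genes.

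GC content moved with the ratio over the whole transcriptome and so was examined for the members. Over all 11403 measured genes, Pearson's r between GC content and log2 ratio was -0.25, while over the 77 members it was -0.04, both across genes of the same pair of libraries. In transcripts under 45% GC the 12 members had a median of -0.38 and the other genes 0.19. Between 45% and 50% GC the 26 members had -0.51 and the others 0.05, and between 50% and 55% the 22 members had -0.34 and the others -0.08. At 55% GC and above the 17 members had -0.55 and the others -0.20. The members were lower than the other genes in all 4 bands. With the trend over GC content and length removed, the members' median was -0.39, 23 members were at least 1.5-fold lower, against 10.6% of all measured genes, and 2 were higher, against 10.8%.

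**Figure D4:**
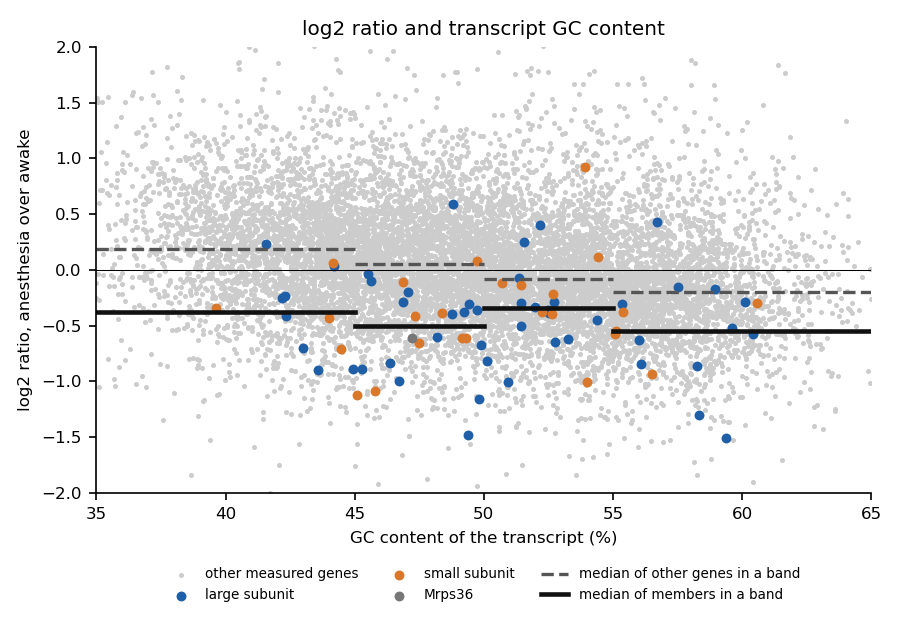
Log2 ratio of CPM, anesthesia over awake (y axis), against GC content of the transcript (x axis, %) in microglia-like cells, with members coloured by subunit and other measured genes in grey; points beyond the axes are not drawn. Solid lines are the members' medians and dashed lines those of the other genes in 4 bands of GC content, and the solid line is the lower in each band.

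The rest of the mitochondrial translation system differed less uniformly. Mitochondrial ribosomal proteins whose symbols do not begin with Mrp had a median log2 ratio of -0.26 over 5 genes (-0.11 with the trend over GC content and length removed), with 0 of 5 beyond 1.5-fold in either direction. Gadd45gip1 and Chchd1 stood at -0.49 each and Aurkaip1 at -0.26. Dap3, a GTP-binding protein of the small subunit, stood at 0.02 (-0.09 to 0.13), and Ptcd3 at 0.15 (-0.03 to 0.33). The 30 assembly factors had a median of -0.21 (-0.15 with that trend removed). Of them 8 (26.7%) lay beyond 1.5-fold on the lower and 2 (6.67%) on the higher side, beside 11.9% and 13.4% of all measured genes. With the trend removed 8 were lower and 1 higher, beside 10.6% and 10.8%. The lowest were the GTPase Mtg2 at -1.35, the ribosomal RNA methyltransferase Tfb1m at -1.32 and Rpusd3, a pseudouridine synthase family member, at -1.16. Gtpbp10 stood at 0.76 (0.53 with the trend removed), Mterf3 at 0.63 and Ybey at 0.50.

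Translation factors of mitochondria had a median of -0.54 over 14 measured genes, with 6 (42.9%) at least 1.5-fold lower and 1 (7.14%) higher, beside the same 11.9% and 13.4%. With the trend over GC content and length removed the median was -0.46. Then 4 were lower, against 10.6% of all measured genes, and 1 higher, against 10.8%. Tsfm, which recharges the elongation factor encoded by Tufm, had 21.5 and 9.63 CPM, a log2 ratio of -1.16. Tufm itself had -0.80, and -0.54 with that trend removed. The ribosome recycling factor Mrrf had -1.13. Guf1, a ribosome-associated GTPase, had 5.84 and 11.4 CPM, a log2 ratio of 0.97, and Gfm2 and Metap1d stood at 0.34 and 0.16. Of 18 measured genes for mitochondrial aminoacyl-tRNA synthesis, 3 were at least 1.5-fold lower, 16.7% and so near the 11.9% of all measured genes (among them Gatb at -0.79 and Aars2 at -0.74) and 1 higher, against 13.4% (Lars2 at 1.04). With the trend removed 4 were lower, against 10.6%, and 1 higher, against 10.8%. Iars2 and Nars2 stood at 0.37 and 0.26, and at 0.18 and 0.12 with the trend removed. The median of the 18 genes was -0.25, and -0.22 with the trend removed. Their summed log2 ratio was 0.14 (0.11 to 0.18), the opposite sign, with Lars2 at 50.8 and 105 CPM.

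In microglia-like cells the RNA partners of these proteins went the other way. The mitochondrial DNA-encoded ribosomal RNAs mt-Rnr1, of the small subunit, and mt-Rnr2, of the large subunit, were higher in the anesthesia library, with log2 ratios of 0.80 (0.79 to 0.82) and 0.69 (0.68 to 0.70). These transcripts are low in GC, and with the trend over GC content and length removed their ratios were 0.52 and 0.46, both under 1.5-fold. Of the 13 messenger RNAs of mitochondrial DNA, which these ribosomes translate, 9 (69.2%) were at least 1.5-fold higher, against 13.4% of all measured genes. At least 1.5-fold lower were 0, against 11.9%, and the median of the 13 was 0.89, while their summed log2 ratio was 0.32. The 9 held 223 to 20741 awake UMIs each, while mt-Nd1, mt-Nd2, mt-Nd4 and mt-Cytb held 110152 to 158909 and stood at -0.07 to 0.42. With that trend removed 6 of the 13 were higher, against 10.8% of all measured genes, and the median was 0.58. Then mt-Nd2 moved from 0.27 to -0.001 and mt-Cytb from 0.21 to 0.08. The largest were mt-Atp8 at 1.73, mt-Nd6 at 1.27 and mt-Nd4l at 1.12, and the lowest was mt-Nd4 at -0.07. The 13 genes for mitochondrial transcription and DNA maintenance had a median of 0.16 (0.06 with that trend removed). Of them 3 (23.1%) lay beyond 1.5-fold on the lower and 1 (7.69%) on the higher side, beside 11.9% and 13.4% of all measured genes. With the trend removed 3 were lower and 0 higher, beside 10.6% and 10.8%. The RNA polymerase Polrmt stood at -1.03, Tefm at -0.70 and Polg at -0.62. Mterf1a stood at 0.59, Tfam at 0.38 and Slirp at 0.37, and at 0.48, 0.22 and 0.29 with the trend removed.

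Nuclear genes of oxidative phosphorylation, which encode the partners of the mitochondrially made subunits, were close to 0 over all microglia-like cells. Over 76 measured genes the median log2 ratio was -0.10 (-0.02 with the trend removed), and the sum was 8653 CPM awake against 8439 CPM under anesthesia. By microglia-like cluster their summed log2 ratio ran from -0.24 in cluster 5, the only one below 0, to 0.33 in cluster 2, which rests on 24 awake cells. Of these genes 1 (1.32%) was at least 1.5-fold lower and 5 (6.58%) higher, beside 11.9% and 13.4% of all measured genes. For the 83 measured genes of cytosolic ribosomal proteins the median was -0.01 (0.06 with the trend removed), and their summed log2 ratio was 0.17. Of them 2 (2.41%) were at least 1.5-fold lower and 12 (14.5%) higher, the latter near the 13.4% of all measured genes. Of 8 measured regulators of nuclear genes for mitochondria, 7 had a ratio above 0, with a median of 0.17 (0.15 with the trend removed). At least 1.5-fold lower were 0 and higher was 1 (12.5%), Myc at 0.82, beside the same 11.9% and 13.4%. Yy1 and Gabpa stood at 0.15 and 0.18, and at -0.02 and -0.13 with the trend removed. Nrf1 had 32.0 and 32.1 CPM, a log2 ratio of 0.00 (-0.09 to 0.10), Pprc1 and Ppargc1b stood at 0.40 and 0.39, and the nuclear receptor Esrra at -0.39.

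Many members share a promoter region with a neighbour on the other strand. A protein-coding gene starts within 500 bases on the opposite strand of 25 of the 78 members, 32.1%, against 15.1% of 10052 measured protein-coding genes. The 18 measured partners that are no members had a median log2 ratio of -0.17, and the members beside them -0.38. Of these partners 3 of 18 were at least 1.5-fold lower and 2 of 18 higher, beside 11.9% and 13.4% of all measured genes. Mrpl49 at -1.48 starts beside Fau, a cytosolic ribosomal protein gene, at 0.23 (0.22 to 0.24). Mrpl36 at -1.003 starts beside Ndufs6, a subunit of respiratory complex I, at -0.34 (-0.42 to -0.26), and Mrps18b at -0.39 beside Ppp1r10 at 0.66 (0.64 to 0.68). The member had the lower ratio in 13 of these 18 pairs and the partner in 5, among them Mrpl50 at -0.24 beside Zfp189 at -0.88 and Mrpl37 at -0.30 beside Cyb5rl at -0.72.

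Per cell, the members were also seen less often under anesthesia. After thinning every cell to 2000 UMIs, a step that dropped 187 awake and 305 anesthesia cells, a microglia-like cell held a median of 5 member UMIs if awake and 4 if from an anesthetized mouse, with means of 5.39 and 4.41. Unthinned, the median cell showed 14 and 10 different member genes. Mrpl14 had a UMI in 6.82% (6.26 to 7.42) of thinned awake and 2.11% (1.81 to 2.44) of thinned anesthesia cells, and in 19.9% and 7.68% of cells unthinned. Mrps6 had one in 16.7% (15.8 to 17.6) and 29.3% (28.3 to 30.3) of thinned cells, and in 39.8% and 58.0% unthinned. No cell class of these libraries should lack mitochondrial ribosomal proteins, so no background share from free RNA can be given for them. In bands of depth per cell, the summed log2 ratio was -0.15 (-0.25 to -0.06) under 3000 UMIs, between -0.29 and -0.30 in the 3 bands from 3000 to 10000 UMIs, and -0.30 above.

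Across microglia-like clusters the members' summed level was higher in each main awake cluster than in each main anesthesia cluster. The main awake clusters 0 and 1 held 2579 (2559 to 2599) and 2821 (2797 to 2845) CPM, and the main anesthesia clusters 2, 3 and 4 held 2142 (2125 to 2159), 2178 (2156 to 2201) and 2348 (2317 to 2379) CPM. Clusters 0 and 1 differed in mitochondrial share too, with median shares of 1.93% and 0.898% in their awake cells. Cluster 7, led by Clec7a, Lgals3 and Lpl, had the highest level of the microglia-like clusters in both libraries, 3019 CPM in 284 awake and 2744 CPM in 67 anesthesia cells. Within each of the 8 microglia-like clusters the log2 ratio of anesthesia over awake was below 0, from -0.37 in cluster 5 to -0.07 in cluster 3. The interval of cluster 3 (-0.17 to 0.03) reached past 0, and that cluster rests on 62 awake cells.

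Single members varied over clusters in different ways. Mrpl14 had 35.05 and 35.4 CPM in awake clusters 0 and 1, and 10.5, 14.3 and 12.8 CPM in anesthesia clusters 2, 3 and 4, so that its awake values were close to each other and above all 3 anesthesia values. Mrpl52 had 136 and 125 CPM in these awake clusters, against 166, 185 and 188 CPM in those of the anesthesia library. Mrps6 varied strongly within a library, with 132 and 63.2 CPM in awake clusters 0 and 1, and 181, 264 and 114 CPM in anesthesia clusters 2, 3 and 4. Anesthesia cluster 4 thus held less Mrps6 than awake cluster 0. Combined within clusters, where each ratio rests on the few cells of the minor library, 25 members were at least 1.5-fold lower, against 14.2% of all measured genes, and 3 higher, against 11%. In that comparison Mrps14 had a log2 ratio of 0.03 in place of -0.34, and Mrpl36 stood at -0.57 and Mrpl21 at -0.15.

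**Figure D5:**
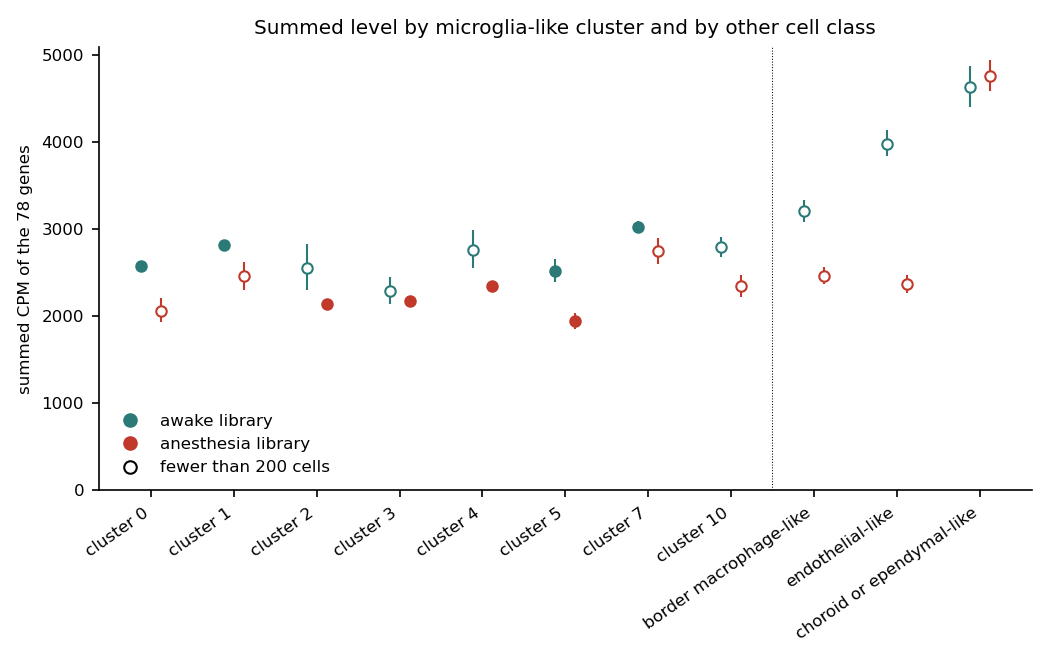
Summed CPM of the 78 genes (y axis) in each microglia-like cluster and in the other cell classes (x axis), for the awake and the anesthesia library; bars are 95% counting intervals and open circles mark groups of fewer than 200 cells. The awake value is the higher in all 8 microglia-like clusters, in border-associated macrophage-like and in endothelial-like cells, and the values overlap in choroid plexus or ependymal-like cells.

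The few other cells that passed the sort gave a further look at the members. In endothelial-like cells (113 awake, 123 anesthesia) the members summed to 3979 (3833 to 4130) and 2366 (2263 to 2473) CPM, a log2 ratio of -0.75 (-0.83 to -0.67). Of 72 members with at least 20 UMIs there, 46 were at least 1.5-fold lower, against 24.3% of all such genes, and 2 higher, against 19.2%. The 10 microglial markers summed to 4426 CPM in awake against 9306 CPM in anesthesia endothelial-like cells, against 23854 and 21606 CPM in microglia-like cells, and the part of microglial RNA in this difference was not tested. In border-associated macrophage-like cells (163 and 97) the members summed to 3207 and 2460 CPM, a log2 ratio of -0.38 (-0.46 to -0.30). There 33 of 73 were at least 1.5-fold lower, against 14.7%, and 5 higher, against 25.7%. The summed log2 ratio of nuclear oxidative phosphorylation genes was -0.30 there, -0.32 in endothelial-like and -0.04 in microglia-like cells. For cytosolic ribosomal protein genes these values were -0.22, 0.09 and 0.17. For the messenger RNAs of mitochondrial DNA they were -0.13, 0.16 and 0.32, so in border-associated macrophage-like cells these RNAs were lower too.

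In choroid plexus or ependymal-like cells (41 and 83) the libraries were close in the members' sum. The members summed there to 4626 (4394 to 4867) CPM awake against 4754 (4580 to 4933) CPM under anesthesia, the highest level of any class, with a log2 ratio of 0.04 (-0.05 to 0.13). There 7 of 65 members were at least 1.5-fold lower, against 11.9% of genes, and 13 higher, against 20.9%. The messenger RNAs of mitochondrial DNA had a summed log2 ratio of -0.38 (-0.42 to -0.35) in this class. Mrpl14 had 121 and 84.5 CPM in these cells, from 39 and 50 UMIs, a log2 ratio of -0.52 (-1.15 to 0.12). In endothelial-like cells it had 72.8 and 32.4 CPM, a log2 ratio of -1.17 (-1.90 to -0.47). Mrps6 was higher in the anesthesia library in all 3 classes, with log2 ratios of 1.01 in endothelial-like, 1.47 in border-associated macrophage-like and 0.60 in choroid plexus or ependymal-like cells. Whether these differences differ between cell classes was not tested, since each class has 1 library per group.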

How the data were processed

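The deposited values are whole-number UMI counts per gene and barcode, not normalized. Per the submitters' processing notes, the authors converted reads with bcl2fastq and made the counts with Cell Ranger 3.1.0 on GRCm38, while Cell Ranger 4.0.0 wrote the matrices, per the file headers. All 55450 gene identifiers matched GENCODE M21.

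Cells with at least 500 genes, 1000 UMIs and at most 10% mitochondrial UMIs were kept, 8223 awake and 8944 anesthesia. Both libraries were clustered together in scanpy 1.11.5 with leidenalg 0.10.2 (2000 variable genes without the members, 30 components, 15 neighbours, resolution 0.6). Clusters were named from 10 markers for each of 15 classes. Microglia-like clusters had at least 7 microglial markers in 25% of cells and fewer than 5 markers of another class seen. They also had at most 1 marker of any other class among the 10 leading genes. Other classes had 5 markers in 25% of cells with 3 among the 10 leading genes, or 7 markers. These limits were set after seeing the data. Cluster 6, with 3 leading astrocyte markers, stayed unnamed (4.50% of awake and 1.92% of anesthesia cells). Scrublet called 0 awake and 1 anesthesia doublet, so it did not work here and removed none.

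Counts were summed per library over microglia-like cells and scaled to 1000000 UMIs (CPM). Log2 ratios have exact conditional binomial (Clopper-Pearson) and CPM exact Poisson 95% intervals, and cell shares exact Clopper-Pearson ones; they cover counting error alone. Copies were called with blastn 2.17.0 at 95% identity over 200 bases and 50% of the shorter transcript. Scripts were tested on simulated counts. Members and gene lists were chosen with earlier results of these data known. Genes were named by a rule: the 8 lowest and 8 highest ratios, every member beyond 1.5-fold, the 6 most abundant, members under 200 UMIs, members of known role, and up to 3 at each end of other lists, of which one is not reported here. Other named genes were chosen after their values were seen. Python 3.11.15, numpy 2.4.6 and scipy 1.17.1 were used.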

Additional observations from a re-analysis of the deposited data

How the results depend on the processing

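Across 17 alternatives the members' median log2 ratio lay between -0.41 and -0.36. The number at least 1.5-fold lower lay between 22, of 60 without members with a near-identical copy, and 29. As a share it ran from 29.9% (23 of 77, GC and length trend removed) to 38.6% (27 of 70, without overlapping members). The share of all genes ran from 9.96% to 14.8%. The number at least 1.5-fold higher was 1 in place of 2 over all barcodes that pass the cell filter, over all deposited barcodes, with cells thinned, and without members that overlap a gene on the same strand, and 3 within clusters. The summed log2 ratio of -0.30 moved beyond its counting interval to -0.28 with the median ratio of all genes set to 0, to -0.29 with totals without mitochondrial genes, to -0.23 within clusters, to -0.37 without overlapping members and to -0.29 without members with a near-identical copy. Of the 28 members at least 1.5-fold lower, 5 lost that call with the GC and length trend removed, 4 with cells thinned and 7 within clusters. Of 814 values of 49 named members under these alternatives, 809 had the sign of the value reported; the exceptions were Mrps14 within clusters (0.03) and 4 values of Mrps30, whose lowest was -0.09. With genes of at least 1 UMI in each library counted, 14.8% of 22607 genes were at least 1.5-fold lower and 26.3% higher, in place of 11.9% and 13.4% of 11403. The alternatives without members with a copy and without cluster 5, and the small subunit without Mrps6, were added after seeing the data. No paired analysis was possible because each group has 1 library. The depth limits Mrpl53, Mrpl44 and the small cell classes most.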
